A study of Mus musculus with 6 samples.

Results

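The 86 mouse genes described here encode the proteins of the cytosolic ribosome, together with a few paralogs and genes that share their names. They are the protein-coding GENCODE genes whose symbols begin with Rpl or Rps and go on as ribosomal protein names do, leaving out the S6 kinase genes, among 24190 genes in the count table. RNA was sequenced from MTO54, a single line of mouse tumor organoids (MTOs). The line is labelled AKP, after the tumor alterations it carries, and MTOs of this kind were made from primary tumors of genetically engineered mice. Organoids were seeded as single cells, and 2 days later 3 samples received Folfiri while 3 control samples received stem cell medium alone, in both cases for 2 days by the labels and the methods, whereas a legend of the study gives a longer treatment. Folfiri combined 5FU, at a dose the labels write as 50 μg/μl, with SN38 at 100 nM. 5FU is a fluorinated uracil that enters RNA and blocks thymidylate synthesis, and SN38, the active form of irinotecan, inhibits topoisomerase I. All 6 samples are of the same line, and the study calls the 3 samples of a group biological replicates without saying whether they were separate passages or days, so p-values measure the spread between these samples only.

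Each cytosolic ribosome holds equal amounts of most of its proteins, which bind ribosomal RNA in the nucleolus to form a small and a large subunit. Their mRNAs are among the most abundant in dividing cells and mostly begin with a run of pyrimidines, the 5′ terminal oligopyrimidine (TOP) motif, through which mTORC1 and its target LARP1 control their translation and stability. In the intestinal epithelium, ribosome production is highest in cycling crypt cells. Of the 86 genes, 77 encode standard ribosomal proteins (31 of the small subunit and 46 of the large subunit, 3 of these in the P stalk that recruits translation factors), and 9 lie outside that set.

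The start regions of the members on which the results turn are shown first, because the TOP motif sits at the start of the mRNA. Each stretch runs from 30 bases before to 30 bases after the annotated start, 5′ to 3′ on the gene's strand, and capitals mark every run of at least 7 pyrimidines that begins with C. The sequences are those of RefSeq on GRCm38.p6, whose table matched 66 of the 86 members, 57 of the 77 standard genes and 8 of the 12 genes that departed from the common shift defined below. The 3 genes with the largest positive departure, Rps27l, Rps19bp1 and Rpl7l1, are shown with Rpl39, the standard gene nearest to the common shift.
Rpl13a (chr7:45128716-45128775, minus strand): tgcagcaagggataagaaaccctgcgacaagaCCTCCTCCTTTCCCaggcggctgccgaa
Rpl10a (chr17:28328441-28328500, plus strand): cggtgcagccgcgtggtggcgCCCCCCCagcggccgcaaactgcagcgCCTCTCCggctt
Rpl5 (chr5:107900498-107900557, plus strand): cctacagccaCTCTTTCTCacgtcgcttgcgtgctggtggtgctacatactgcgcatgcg
Rpl39 (chrX:37085193-37085252, minus strand): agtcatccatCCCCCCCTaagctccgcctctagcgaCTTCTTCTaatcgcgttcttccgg
Rplp2 (chr7:141447621-141447680, plus strand): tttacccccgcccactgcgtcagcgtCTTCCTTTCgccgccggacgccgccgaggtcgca
Rps10 (chr17:27635215-27635274, minus strand): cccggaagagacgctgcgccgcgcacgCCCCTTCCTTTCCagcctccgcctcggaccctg
Rps27l (chr9:66946056-66946115, plus strand): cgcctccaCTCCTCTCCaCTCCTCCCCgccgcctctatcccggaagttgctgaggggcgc
Rps19bp1 (chr15:80264277-80264336, minus strand): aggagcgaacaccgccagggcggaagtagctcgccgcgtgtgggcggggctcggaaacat
Rpl7l1 (chr17:46782627-46782686, minus strand): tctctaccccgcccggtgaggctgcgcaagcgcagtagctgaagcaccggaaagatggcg

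Such a run was present in this window in 32 of 57 standard genes (56.1%) and in 26.5% of all 27025 promoters in the table. Among the lines above it is present on both sides of the common shift, in Rpl13a and Rpl5 as in Rplp2 and Rps10. In Rpl5 and Rps27l every such run ends before the annotated start, so it would lie outside an mRNA beginning there. No run of this kind lies in the windows of Rps19bp1 and Rpl7l1. Of the lower members outside the standard set, Rpl36al had none, while Rpl22l1 and Rps27rt had 1 each. The median log2 fold change of the standard genes was -0.91 with a run and -0.80 without, a difference not tested. Over 300 bases around the start, from 250 before to 50 after, and on both strands, CCGGAAG, a core letter sequence of ETS family sites, was found in 40.4% of standard genes and 9.12% of all promoters. GGGCGG, the GC box, was found in 59.6% and 35.9%, and CACGTG, the E-box that MYC binds, in 8.77% and 7.24%. These are matches of letters near an annotated start, and neither the start used in these cells nor binding of a factor was measured.

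After Folfiri, the standard ribosomal protein genes were lower as a group. Of 77 genes tested, 74 were lower at an adjusted p under 0.05, 0 were higher and 3 were not called, by edgeR's quasi-likelihood test with Benjamini-Hochberg adjustment over 14692 genes. Across all genes tested, 38.8% were lower and 40.3% were higher by the same rule, so changes in both directions were common in this comparison. The median log2 fold change of the 77 genes was -0.86, a level 1.82-fold lower, with quartiles of -1.03 and -0.70, while the median over all genes was 0.02. In 73 of the 77 genes the 3 Folfiri samples did not overlap the 3 controls, against 81.4% of all genes tested. The 4 exceptions were Rpl38, Rplp2, Rps29 and Rps10. In bulk RNA, fewer cells of a type and less RNA per cell cannot be told apart.

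The scale of these values sets how far they can be read. Levels are CPM, counts relative to library size, after TMM scaling, and with scaling by total counts alone the median of all genes moved by 0.28 on the log2 scale and that of the standard genes became -0.58. Relative to the median of all genes, the standard genes stood at -0.88 with TMM scaling and at -0.87 with total counts.

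**Figure D1:**
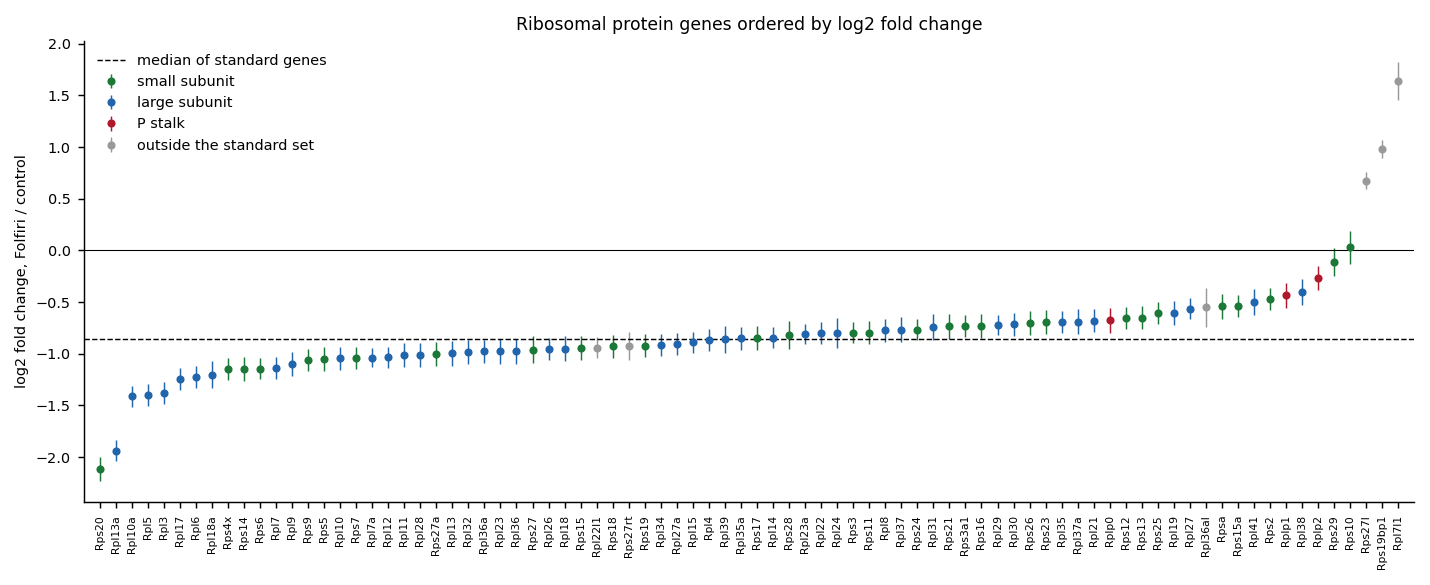
Log2 fold change of Folfiri over control for 82 members, ordered from the lowest to the highest, with bars of 1 standard error from the edgeR fit (3 samples per group). Colours give the subunit, and the dashed line is the median of the 77 standard genes, -0.86. Most genes lie in a narrow band around that line, with Rps20 and Rpl13a far below it and Rpl7l1 at the upper end, at 1.64.

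The members' share of all counts in a sample needs no scaling factor. The 86 genes took 6.15%, 6.98% and 6.87% of all counts in controls 1 to 3, and 4.16%, 4.17% and 4.86% in the treated samples 1 to 3. Every Folfiri sample was below every control. The mean was 6.67% ± 0.451 (SD, n = 3) in controls and 4.40% ± 0.403 (SD, n = 3) after Folfiri, with p = 0.1 by a two-sided exact permutation test, the smallest p that 3 against 3 samples allow. Counts assigned to 194 ribosomal protein pseudogenes moved the same way, from 1.97% ± 0.135 to 1.24% ± 0.108 (SD, n = 3). The share of counts on the mitochondrial chromosome went from 2.23% ± 0.135 to 4.16% ± 0.257 (SD, n = 3), and its part in the result was not tested.

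Total counts per sample ranged from 22103591 to 30098210. The samples of a group differed from each other by more than sampling noise, with a chi-square per degree of freedom between 3.55 and 23.7 over pairs, and control replicate 1 and Folfiri replicate 3 each stood apart from the others of their group. The median log2 fold change of the standard genes was -0.95 without the first and -0.97 without the second, and 75 genes were lower in either case. The organoids had the markers of their labelled origin. Of 8 epithelial genes, 4 were lower (Cdx2, an intestinal transcription factor, the most, at -1.53 on the log2 scale), Cdh1 was higher at 0.21 and 3 were not called, with a median log2 fold change of -0.23, where 38.8% of all genes tested were lower and 40.3% higher. Their summed level, carried mainly by Epcam, Cdh1 and the keratins, was 5731 to 6638 CPM in controls and 4647 to 4818 CPM after Folfiri. Fibroblast markers summed to 1.08 to 1.44 CPM in controls and 2.06 to 2.45 CPM after Folfiri. Of 3 tested, all at low levels, Dcn (log2 fold change 4.44) and Pdgfra (1.54) were higher and Col1a1 (-1.47) was lower. Immune markers summed to 21.4 to 26.2 CPM and 21.6 to 22.6 CPM, nearly all of it Cd68, while the pan-leukocyte gene Ptprc was higher at a mean of 1.06 CPM against 0.396 CPM (log2 fold change 1.39, edgeR adjusted p = 0.000479). Endothelial markers summed to 72.2 to 125 CPM in controls and 65.5 to 76.2 CPM after Folfiri, nearly all of it Cdh5, which was at 124, 73.4 and 71.8 CPM in controls 1 to 3, and Pecam1 stayed under 1 CPM. The part of other cell types in the results was not tested.

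Within each group the standard genes went up and down together from sample to sample. All 77 genes were at their lowest control level in control replicate 1, with a median difference of -0.32 from the mean of the other two controls on the log2 scale. All 77 were at their highest Folfiri level in replicate 3, with a median difference of 0.25. How many of all genes tested had the same lowest and highest samples was not counted. Both samples stood apart from their groups, so this pattern is not shown to be particular to the standard genes. The median SD within a group was 0.17 on the log2 scale for TMM-scaled levels and 0.04 once each sample was scaled on the standard genes themselves. That scaling takes out what the genes share, so the second value is the spread of their proportions.

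**Figure D2:**
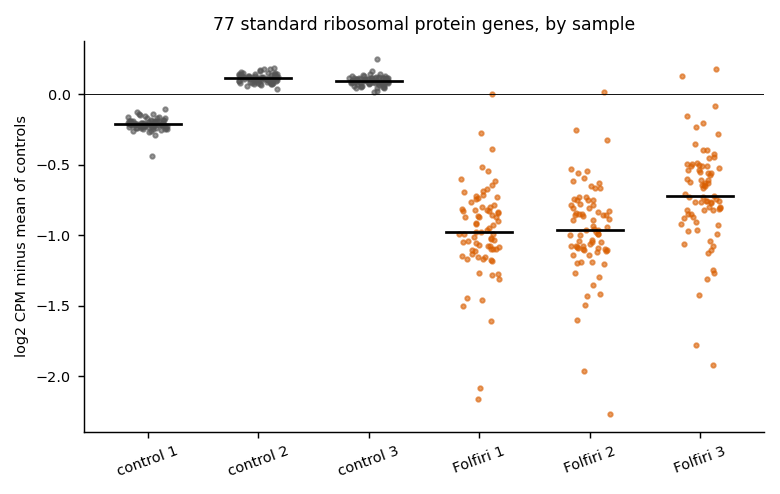
Log2 CPM of each of the 77 standard genes in each of the 6 samples, minus that gene's mean over the 3 controls. Points are genes and black bars are medians of a sample. The control 1 points lie below those of the other controls, and the Folfiri points lie lower and over a wider range, with Folfiri 3 the highest of the treated samples.

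To ask which genes left the common course, all genes were fitted again with each sample scaled by the median of ratios over the 77 standard genes, so that 0 stands for the common shift. Of the 77 genes, 52 lay within 0.25 and 68 within 0.5 of it on the log2 scale. A gene was said to depart where its adjusted p in this fit was under 0.05, its departure was at least 0.5 and its 2 groups of samples did not overlap on this scale. By that rule 6 standard genes departed below the common shift and 3 above, as against 9.79% of all genes tested below and 61.9% above. At an adjusted p under 0.05 alone the counts were 14 below and 16 above, against 11.3% and 66.9% of all genes. The genes nearest to the limit on each side were Rpl3 (-0.51) and Rpl5 (-0.52), just past it, and Rpl38 (0.46) and Rplp1 (0.44), inside it and so not departing.

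By subunit, the median log2 fold change was -0.80 over the 31 small subunit genes and -0.91 over the 43 large subunit genes outside the stalk, all 43 of which were lower. The SD over genes was 0.38 and 0.28, and the difference between the subunits was not tested. The small subunit held the genes at both ends of the order, Rps20 and Rps10.

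Rps20 (ENSMUSG00000028234, chr4:3831334-3835665), a protein of the small subunit head and a ubiquitination site on collided ribosomes, was the lowest standard gene. It was at 541, 682 and 667 CPM in control replicates 1 to 3 and at 140.0, 130.4 and 166 CPM in Folfiri replicates 1 to 3. The lowest control was far above the highest treated sample. The mean went from 630.1 ± 77.7 to 145 ± 18.5 CPM (SD, n = 3), 4.33-fold lower, with a log2 fold change of -2.11 (SE 0.12, edgeR adjusted p = 8.36e-08). Its departure from the common shift was -1.24 (SE 0.09, edgeR adjusted p = 1.96e-06). Of its 50-base stretches, 92.4% occur in no other annotated gene, against a median of 52.1% over the standard genes.

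Rpl13a (ENSMUSG00000074129, chr7:45125558-45128761), a large subunit protein also known from the interferon-induced GAIT complex, was next. Its levels were 66.4, 79.5 and 74.6 CPM in the controls and 17.3, 18.8 and 21.4 CPM after Folfiri, so that the groups were well apart. The log2 fold change was -1.94 (SE 0.10, edgeR adjusted p = 5.6e-08), 3.83-fold lower, and the departure was -1.07 (SE 0.13, edgeR adjusted p = 3.33e-05). The annotated gene Gm45713 covers 35.4% of its exonic length on the same strand, and its level was low for a ribosomal protein gene, so its value is uncertain.

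Rpl10a (ENSMUSG00000037805, chr17:28328471-28331033), the protein of the L1 stalk, was at 659, 789.9 and 766 CPM in controls and at 260.5, 261 and 309.9 CPM after Folfiri. Its log2 fold change was -1.41 (SE 0.10, edgeR adjusted p = 4.49e-07) and its departure -0.54. The treated samples lay close together and well below the controls. With the 2 standard genes of at least 95% unique 50-base stretches as the reference, its departure was -0.49 and no longer met the rule. Of its 50-base stretches, 22.3% are unique to the gene.

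Rpl3 (ENSMUSG00000060036, chr15:80077791-80091868) encodes a large subunit protein that reaches towards the peptidyl transferase centre. It was at 1813, 2199.6 and 2186 CPM in controls and at 756, 764 and 857 CPM after Folfiri. The log2 fold change was -1.38 (SE 0.11, edgeR adjusted p = 7.03e-07), and the departure of -0.51 (edgeR adjusted p = 0.000122) was just past the limit. Without Folfiri replicate 3 the departures of Rpl3 and Rpl5 were both -0.47, and without control replicate 1 that of Rpl3 was -0.49, so that the rule then held for 4 and 5 standard genes below the common shift instead of 6. With the summed counts of the standard genes as the reference, Rpl3 stood at -0.49, and with the 95% reference Rpl3 and Rpl5 stood at -0.46 and -0.47, all inside the limit.

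Rpl5 and Rpl11, which join 5S ribosomal RNA in a particle that also binds Mdm2, were both lower. Rpl5 (ENSMUSG00000058558, chr5:107900502-107909005) was at 2269, 2746 and 2814 CPM in controls and at 945, 974 and 1051 CPM with Folfiri, for a log2 fold change of -1.40 (SE 0.11, edgeR adjusted p = 7.49e-07). Its departure was -0.52 (SE 0.08, edgeR adjusted p = 0.000111). Rpl11 (ENSMUSG00000059291, chr4:136028265-136053428) was at 661, 829 and 775 CPM in controls and at 343, 349.8 and 429 CPM with Folfiri, for a log2 fold change of -1.01 (SE 0.11, edgeR adjusted p = 1.2e-05). Its departure was -0.14 (SE 0.09, edgeR adjusted p = 0.143), and the difference between the 2 genes was not tested. Without Folfiri replicate 3 the departure of Rpl11 was called, at -0.16 (adjusted p = 0.0412), beside -0.47 for Rpl5. Only 6.16% of the 50-base stretches of Rpl5 are found in no other gene. Reads of Rpl5 and of its pseudogenes are therefore hard to tell apart. Other annotated genes, Fam69a on the opposite strand among them, cover 26.7% of the exonic length of Rpl5, so its value is uncertain.

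At the upper end stood 3 standard genes that were not called lower. Rps10 (ENSMUSG00000052146, chr17:27630418-27636669) lies near the mRNA entry of the small subunit and is, like Rps20, ubiquitinated by Zfp598 when ribosomes collide. It was at 9.15, 14.0 and 14.8 CPM in controls and at 12.4, 12.5 and 13.6 CPM after Folfiri, and the treated samples lay within the range of the controls. The log2 fold change was 0.03 (SE 0.16, edgeR adjusted p = 0.878), and the departure was 0.91 (SE 0.17, edgeR adjusted p = 0.000523). Without control replicate 1 the log2 fold change was -0.16. Its level was the lowest per length of the standard genes in controls, at 5.47 CPM per kilobase of exon, and other annotated genes, RPS10-NUDT3 among them, cover 28.7% of its exonic length, so its value is uncertain as well.

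Rps29 (ENSMUSG00000034892, chr12:69157722-69159186), a short zinc-binding protein of the small subunit head, was at 259, 338 and 315 CPM in controls and at 249, 253 and 342 CPM after Folfiri. The highest of the 6 values was a treated sample and the groups overlapped. The log2 fold change was -0.11 (SE 0.13, edgeR adjusted p = 0.46) and the departure 0.76 (SE 0.10, edgeR adjusted p = 4.93e-05).

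The P stalk, formed by Rplp0 and by Rplp1 and Rplp2, which bind it in pairs, stood above the common shift in all 3 genes. At an adjusted p under 0.05, 16 of the 77 standard genes and 66.9% of all genes tested lay above the common shift. By the departure rule 1 of the 3 stalk genes did, against 61.9% of all genes tested. Rplp0 (chr5:115559467-115563727) was at 4075, 5054 and 4851 CPM in controls and at 2776, 2766 and 3202 CPM after Folfiri, a log2 fold change of -0.68 with a departure of 0.20 (SE 0.06, edgeR adjusted p = 0.0151). Rplp1 (chr9:61913284-61914542) was at 1181, 1511 and 1456 CPM and then at 945, 951 and 1169.5 CPM, a log2 fold change of -0.44 with a departure of 0.44 (SE 0.07, edgeR adjusted p = 0.000295). Rplp2 (ENSMUSG00000025508, chr7:141447370-141451585) was at 476, 606 and 610.2 CPM and then at 428, 448 and 529 CPM, so that the highest treated sample exceeded the lowest control. Its log2 fold change was -0.27 (SE 0.12, edgeR adjusted p = 0.053), and its departure was 0.61 (SE 0.08, edgeR adjusted p = 7.5e-05). Rplp2 was called lower by DESeq2 (adjusted p = 0.0387) and by edgeR without control replicate 1 (adjusted p = 0.000788) or Folfiri replicate 3 (adjusted p = 0.0219). The departure of Rplp0 lost its call without control replicate 2 (0.20, adjusted p = 0.0595) or control replicate 3 (0.18, adjusted p = 0.0761). With total counts only, Rplp1 stood at -0.15 and was not called (adjusted p = 0.169). Per length, Rplp0 was the highest standard gene in controls, at 2809 CPM per kilobase of exon.

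**Figure D3:**
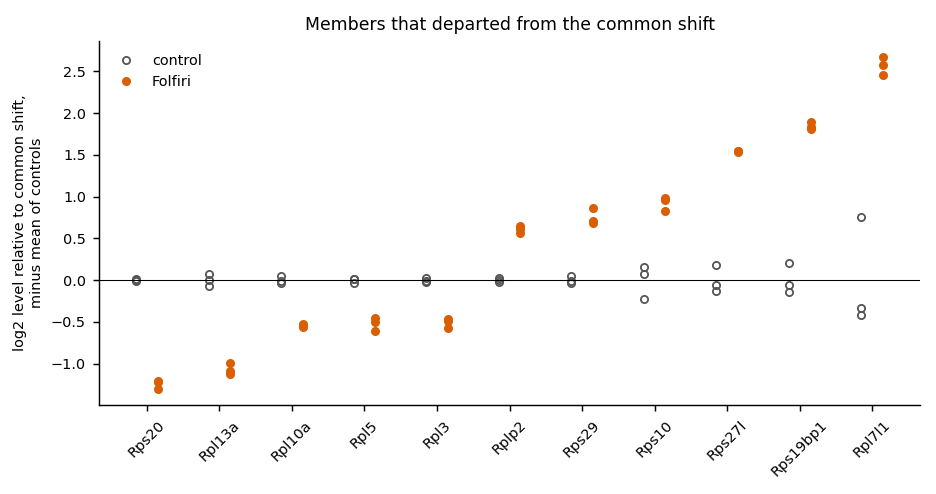
Log2 level of 11 members that departed, scaled in each sample on the standard genes and set to a mean of 0 over the 3 controls. Open circles are controls and filled circles are Folfiri samples, so a filled circle at 0 would have followed the common shift. The treated samples lie together below 0 for 5 genes and above 0 for 6, and control values spread most for Rpl7l1.

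The 9 members outside the standard set split into 3 that were lower, 3 that were higher and 3 that were not tested because their counts were too low. Of all genes tested, 38.8% were lower and 40.3% higher, so this split is no result about these 6. Rpl22l1, a paralog of Rpl22, was at 61.8, 63.7 and 73.0 CPM in controls and at 31.8, 32.5 and 39.0 CPM after Folfiri, a log2 fold change of -0.94 (edgeR adjusted p = 8.25e-06), and Rpl22 itself stood at -0.80. Rps27rt, a retrotransposed copy of Rps27, had a log2 fold change of -0.92 (edgeR adjusted p = 9.94e-05) beside -0.96 for Rps27, and 8.92% of its 50-base stretches occur in no other gene. Rpl36al, a paralog of Rpl36a, was at 3.46, 4.80 and 4.99 CPM and then at 2.51, 2.87 and 3.55 CPM, with overlapping groups and a log2 fold change of -0.55 (edgeR adjusted p = 0.0204) that lost its call when any of 4 samples was left out, with an adjusted p up to 0.0846, and with total counts only (-0.27, adjusted p = 0.19). These 3 stayed near the common shift, with departures of -0.08, -0.05 and 0.31.

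The 3 higher members stood above the common shift, as 61.9% of all genes tested did by the departure rule. Rpl7l1 (ENSMUSG00000063888, chr17:46773907-46782672), a nucleolar relative of Rpl7 that acts in large subunit assembly, was at 70.4, 41.5 and 38.8 CPM in controls and at 149, 157 and 165 CPM after Folfiri. Its log2 fold change was 1.64 (SE 0.19, edgeR adjusted p = 1.26e-05), 3.12-fold higher, and 1.97 without control replicate 1, the sample with the highest control value. Rps19bp1 (ENSMUSG00000051518, chr15:80260615-80264315), a protein that binds Rps19 and Sirt1 and is not part of the mature ribosome, was at 22.5, 23.5 and 22.1 CPM and then at 41.6, 43.3 and 49.1 CPM. Its log2 fold change was 0.98 (SE 0.09, edgeR adjusted p = 2.12e-06). Rps27l (ENSMUSG00000036781, chr9:66946086-66949516), a paralog of Rps27, was at 81.4, 82.6 and 85.6 CPM and then at 124, 124 and 150.3 CPM. Its log2 fold change was 0.68 (SE 0.09, edgeR adjusted p = 3.11e-05), 1.60-fold higher. In each of the 3 the lowest treated sample was above the highest control.

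Genes with tissue-bound expression stayed near 0. Rpl3l, the striated muscle paralog of Rpl3, had 1, 0 and 1 counts in the controls and 1, 1 and 1 after Folfiri. Rpl10l, known from testis, had 2, 0 and 0 counts and then 0 in every sample. Rpl39l had 1 count in Folfiri replicate 2 and 0 elsewhere. Rpl39, the gene nearest to the common shift, was at 411, 525 and 538 CPM in controls and at 245, 244 and 322 CPM after Folfiri, a log2 fold change of -0.86 with a departure of 0.01.

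Across the 77 standard genes, those with longer coding sequences had lower fold changes. Pearson's r between the log2 fold change and the log2 length of the longest annotated coding sequence was -0.35 and Spearman's rho was -0.40, over 77 genes measured in the same 6 libraries. Over 12806 other coding genes the values were 0.003 and -0.002. In 3 classes of length, the median log2 fold change was -0.75 over 26 genes of 138 to 405 nt, -0.93 over 25 genes of 408 to 582 nt and -1.04 over 26 genes of 582 to 1257 nt. Rps20, at 357 nt in the shortest class, and Rps10, at 507 nt in the middle class, lay off this course. These are descriptions across genes, which are not independent replicates, and the level in controls, which has a rho of -0.34 with the log2 fold change, was not separated from length.

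**Figure D4:**
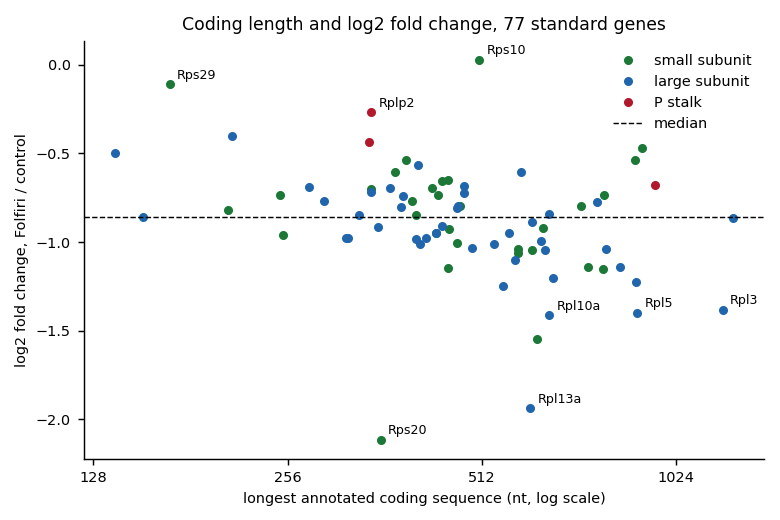
Log2 fold change of Folfiri over control against the length of the longest annotated coding sequence (nt, log scale) for the 77 standard genes. Colours give the subunit, the dashed line is the median of -0.86, and departing genes are named. The points drift downward with length (Spearman's rho -0.40), with Rps20, Rpl13a and Rps10 away from the drift.

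Many ribosomal protein genes carry small nucleolar RNA genes in their introns, and 30 of the 77 standard genes did in this annotation. Of the 6 genes below the common shift, 5 carried at least 1, with 4 in Rpl13a and none in Rpl10a. The medians of genes with and without such RNAs were -0.89 and -0.85, and over the 77 genes the log2 fold change had a Pearson's r of -0.30 and a Spearman's rho of -0.17 with the number of such RNAs. Genes were also split by how much sequence they share with others. The median log2 fold change was -0.86 over 30 standard genes with at least 60% of their 50-base stretches unique and -0.85 over the other 47, and Spearman's rho with that share was 0.12. Within 0.25 of the common shift lay 24 of the 30 more unique genes and 28 of the other 47, and of the 6 genes departing below it, 5 were among the 47. The difference in spread was not tested.

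Beside the members, Fau and Rack1 encode ribosomal proteins under other names. Fau, which encodes Rps30 fused to a ubiquitin-like protein, was at 874, 1234 and 1174 CPM in controls and at 409.5, 415 and 526 CPM with Folfiri, for a log2 fold change of -1.28 (SE 0.14, edgeR adjusted p = 1.1e-05). Rack1, a scaffold on the small subunit, had a log2 fold change of -1.09 (SE 0.11, edgeR adjusted p = 3.72e-06).

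Translation factors and other genes with TOP mRNAs were mostly lower as well. Of 16 tested, 12 were lower, 1 was higher and 3 were not called, with a median log2 fold change of -0.91, where 38.8% of all genes tested were lower. With total counts only, 4 of the 16 were higher. Relative to the common shift they went both ways. By the departure rule 6 of the 16 lay above it, against 61.9% of all genes tested. These were Eif2s3x, the furthest above, Eef1d (0.91), Nap1l1 (0.89), Eif3l (0.78), Eif3e (0.68) and Npm1 (0.51). By the same rule 0 lay below it, and the lowest departures, of Eef1a1 and Eef2, were -0.48 and -0.47. The median departure of -0.03 thus lies between members on both sides. The elongation factors Eef1a1 (-1.36), Eef2 (-1.36) and Eef1b2 (-1.29) and the growth-related Tpt1 (-1.33) were the lowest on the log2 scale. Eef1a1, which brings aminoacyl-tRNA to the ribosome, was at 11452 to 13919.8 CPM in controls and at 5009.8 to 5133 CPM after Folfiri. The higher gene was Eif2s3x, a subunit of the initiation factor that carries the initiator tRNA, with a log2 fold change of 0.63.

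The dedicated chaperones that carry single ribosomal proteins to the nucleolus showed the opposite direction in 5 of 6 genes tested, with a median log2 fold change of 1.90, where 40.3% of all genes tested were higher. Heatr3, which carries Rpl5, was at 15.8, 5.76 and 5.35 CPM in controls and at 74.0, 77.9 and 77.0 CPM with Folfiri, for a log2 fold change of 3.06 (SE 0.31, edgeR adjusted p = 5.7e-06). Grwd1, which binds Rpl3, was at 13.1, 7.44 and 5.71 CPM and then at 60.9, 64.8 and 67.9 CPM, a log2 fold change of 2.86 (SE 0.22, edgeR adjusted p = 7.3e-07). Control replicate 1, in which the standard genes were lowest, had the highest control level of both, and without it the log2 fold changes were 3.78 and 3.28. Tsr2, the carrier of Rps26, rose by 2.34 on the log2 scale, with 30.2% of its exonic length shared with other genes. Ltv1, an assembly factor of the small subunit, rose by 1.47 and Bccip, which binds Rpl23, by 1.43. Pdcd2l, a paralog of the Rps2 carrier Pdcd2, fell by 0.92 on the log2 scale.

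The regulators through which mTORC1 acts on TOP mRNAs showed no common direction, with 4 of 13 higher, 4 lower, 5 not called and a median log2 fold change of 0.03. Of all genes tested, 40.3% were higher and 38.8% lower. Larp1, the protein that binds TOP mRNAs and holds them from translation, was at 193, 155 and 145 CPM in controls and at 303, 291 and 250.4 CPM with Folfiri, for a log2 fold change of 0.77 (SE 0.11, edgeR adjusted p = 8.96e-05). Mlst8, a subunit of mTOR complexes, stood at 0.75, Rps6kb2, an S6 kinase, at 0.46 and Larp4 at 0.31. Larp1b, a relative of Larp1, had the lowest value at -1.49 (SE 0.09, edgeR adjusted p = 1.7e-07), followed by Eif4ebp1, the inhibitor of cap-dependent initiation, at -1.20, Rptor, the mTORC1 scaffold, at -0.46 and Tsc1, an inhibitor of the pathway, at -0.29. The call of Tsc1 was lost without control replicate 1 (adjusted p = 0.0502) or Folfiri replicate 3 (adjusted p = 0.0924). These numbers depend on the scaling, since with total counts only 8 of the 13 were higher and 2 lower, and neither Tsc1 nor Rptor was called.

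Factors that act on stalled or collided ribosomes were split as well, with 5 of 14 higher, 4 lower, 5 not called and a median log2 fold change of 0.03. Pelo, which splits stalled ribosomes, stood at 0.66 with 67.1% of its exonic length shared with other genes, Usp10, a deubiquitinase of small subunit proteins, at 0.46, Hbs1l, the partner of Pelo, at 0.32 and Zfp598, the ligase that marks collided ribosomes, at 0.29. Gtpbp2 and Gtpbp1, GTPases that act with Pelo, stood at -0.78 and -0.47, Ascc3, the helicase that takes collided ribosomes apart, at -0.67 and Edf1, a sensor of collisions, at -0.35. Across all genes tested, 79.1% passed the threshold in either direction. With total counts only, 9 of the 14 were higher and Edf1 was not called (-0.074, adjusted p = 0.417).

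**Figure D5:**
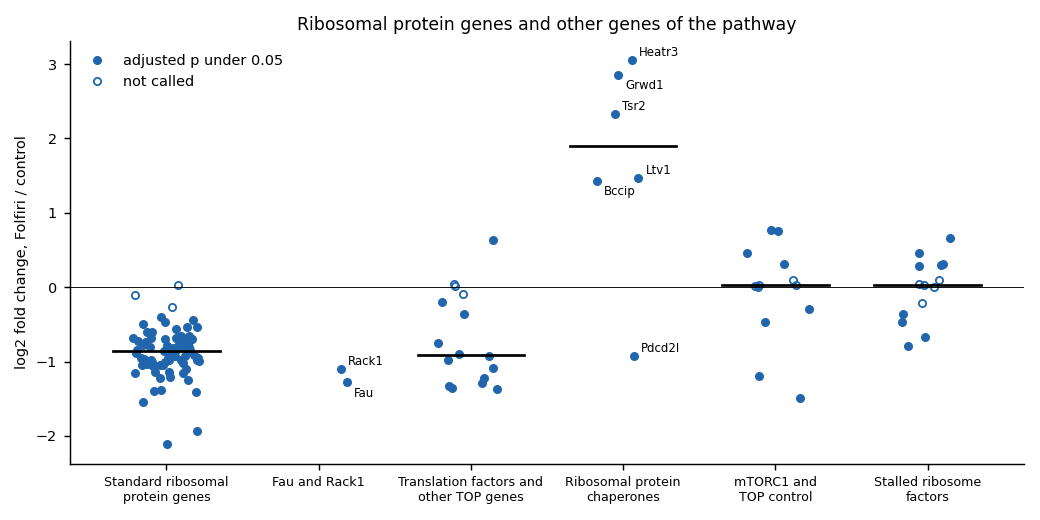
Log2 fold change of Folfiri over control for the 77 standard ribosomal protein genes, Fau and Rack1, and the genes of 4 further lists. Filled points passed an adjusted p under 0.05 and open points did not, and black bars are medians (none for the pair Fau and Rack1). The TOP genes centre near the ribosomal protein genes, at -0.91 and -0.86, the chaperones lie above 0 in 5 of 6 genes, and the last pair of lists centre on 0.03.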

How the data were processed

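Poly(A) RNA libraries of 3 control and 3 Folfiri-treated samples, made with a kit that does not mark strand, were sequenced by the authors. Per the labels and the methods, the authors aligned reads with STAR 2.5.2 to GRCm38 (mm10), counted them per GENCODE gene with Rsubread and deposited raw counts. The strand setting and the handling of reads with several positions are not given in the sources used here, so members that overlap other genes or have near-identical copies are uncertain. Samples were grouped by the labels, and replicate numbers were taken from the sample titles.

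The deposited counts were tested in R 4.3.3 with edgeR 4.0.16 (default expression filter, TMM scaling, quasi-likelihood test, Benjamini-Hochberg adjustment over 14692 genes, threshold 0.05). The filter kept 83 of 86 members and all 77 standard genes. The departure fit replaced TMM by the median of ratios over the 77 standard genes. GENCODE vM21 gave types, positions, coding lengths, exon overlap and shared 50-mers for 24168 of 24190 genes, and windows came from a RefSeq table. Counting error alone sets the precision for untested members.

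Members and gene lists were chosen with earlier results of these data known. Values are given for every departing member, every member outside the standard set, the stalk, Rpl5, Rpl11, the standard genes highest per length and nearest to the common shift, ribosomal proteins under other names, and up to 4 called genes per direction in each list. Results for some genes that this rule covers are not reported here. Genes of the lists without a row in the annotation or table used were not analysed here. Alternatives were DESeq2 1.42.0, other scalings, filters and references, a replicate block, and each sample left out. In simulated data with 200 genes changed by 1 on the log2 scale, 193 were recovered and 11 others called among 14466, and of 10 genes departing by 0.7, 9 were recovered. The simulation changed far fewer genes than were called here, drew each gene independently and gave the standard genes no shared sample-to-sample shift. Its departures were larger than those of Rpl10a, Rpl5 and Rpl3, so recovery near the limit was not tested.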

Additional observations from a re-analysis of the deposited data

How the results depend on the processing

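Over the alternatives run, the number of standard genes called lower lay between 70 and 75, and the 3 members outside the standard set that were higher stayed at 3 in number. With total counts only, the median of the standard genes was -0.58 instead of -0.86, higher calls became 4 among the TOP genes, 8 among the mTORC1 genes (with 2 lower) and 9 among the stalled ribosome factors, and Rps29 (0.17) and Rplp2 (0.015) changed sign without being called. Without a filter except 1 count, the standard genes stood at -1.16 relative to the median of all genes, since more genes were tested. With the 2 standard genes of at least 95% unique 50-base stretches as the reference, 3 genes departed below the common shift, and with a limit of 0.25 in place of 0.5, 13 departed below and 12 above. A reference of 30 genes with at least 60% unique stretches, an alternative chosen after seeing the data like the median relative to all genes, left 6 and 3, and gave Rpl39 a departure of -0.011. Leaving out 1 sample in turn gave a median of the standard genes from -0.97 to -0.81, 73 to 75 genes lower, 4 to 6 departing below and 3 above. It moved Rps10 between -0.16 and 0.14 and the departure of Rpl39 between -0.034 and 0.042. The departure of Rplp0 was not called by DESeq2 (0.20, adjusted p = 0.133). Rplp2 was called lower without the filter, by DESeq2, with the block, and without control replicate 1 or Folfiri replicate 3, with log2 fold changes of -0.37 to -0.26.

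Same-numbered samples had r = 0.05, -0.24 and 0.05 between their deviations, and differently numbered samples had values from -0.17 to 0.23. With 3 samples per group, these values cannot decide whether the replicate numbers pair the samples. With the number as a block, 75 standard genes were lower, 11499 genes were called in place of 11623, and 6 and 3 standard genes departed.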
